A study of Mus musculus with 2 samples.

Results

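The transcripts of 9 secreted regulators of bone morphogenetic protein (BMP) signalling were followed through the cell classes of the brain and the lung. They were the 5 ligands Bmp2, Bmp4, Bmp5, Bmp6 and Bmp7 and the 4 antagonists Nog, Grem1, Fst and Sostdc1, chosen by name out of 25814 genes with counts in either library, and all 9 had counts in both. The cells were Nes-GFP+ cells, sorted for a green fluorescent reporter driven by the Nestin gene, from adult Nestin-GFP mice of about 6 weeks. The strain label read C57BL/6, whereas the methods of the study named CD1 or mixed CD1 and C3H wild-type mice, to which transgenic lines were bred. All cells carried the reporter, no other allele or treatment was given, and neither the number nor the sex of the mice behind each library was stated. Each tissue gave 1 library of 1 biological replicate, so no difference between tissues had a replicate check, and tissue and library cannot be told apart.

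BMPs are secreted dimers of the transforming growth factor-β family. They bring type I and type II receptor kinases together, and these phosphorylate SMAD1, SMAD5 and SMAD9, which enter the nucleus with SMAD4 and act on targets such as the Id genes. Noggin, gremlin 1, follistatin and Sostdc1 act outside the cell, where they bind ligands or hinder their access to receptors. In the adult brain, BMPs slow the division of neural stem cells and steer precursors towards astrocytes, and in the lung they are known for roles in vessels and in branching of the airways.

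The counts are unique molecular identifiers (UMIs), of which each stands for 1 captured transcript. After the study's filter the brain library held 4151 cells with a median of 4209 UMIs, and the lung library 5608 cells with a median of 5585. Cells were placed in classes by markers that did not include the 9 genes, and a class is called "-like" after its list. This gave 11 brain classes of 40 to 1937 cells and 9 lung classes of 25 to 2396 cells, while 407 brain cells (9.81%) and 892 lung cells (15.9%) were left unassigned. Nes itself had 64.7 CPM in the brain cells and 358 in the lung cells, where CPM stands for counts-per-million. The libraries shared 15 barcodes, of which 11 were kept in both. Levels are given as CPM, the UMIs of a gene over all UMIs of the class, with exact 95% intervals that cover counting error only. No length was divided out, so levels are compared between classes and not between genes.

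Over all kept cells of a library, the ligands and the antagonists were distributed unevenly between the tissues. Bmp2 had 94 UMIs in brain and 1561 in lung (4.82 and 49.1 CPM, a lung to brain ratio of 10.2, interval 8.28 to 12.7). Bmp5 stood at 20 and 545 UMIs, a ratio of 16.7 (10.7 to 27.6). Bmp4 had 1201 and 2234 UMIs (61.5 and 70.3 CPM, ratio 1.14), but over every barcode, those of 4000 genes or more included, the brain level was the higher (91.9 and 70.1 CPM, ratio 0.762). The far rarer Bmp6 had 38 and 55 UMIs (ratio 0.888, interval 0.577 to 1.38). Bmp7 was higher in the brain, with 253 UMIs against 22 in lung (ratio 0.0534, 0.0329 to 0.0826), also over every barcode (ratio 0.0797). All 4 antagonists were at least 2 times higher in lung, and with Bmp2 and Bmp5 these were 6 of the 9 genes, where 16.1% of all genes were (31.6% in brain). Nog had 53 and 227 UMIs (ratio 2.63), Grem1 11 and 100 (5.58), Sostdc1 21 and 118 (3.45), and Fst 1 and 650 (399, 71.4 to 15783). In these values, fewer cells of a type and less RNA per cell cannot be told apart.

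Bmp4 and Bmp5 were both highest in the Col13a1 fibroblast-like and myofibroblast-like classes of the lung. For that reason the 250 bases before the start that RefSeq gives for each gene are shown side by side. The sequences are from RefSeq on GRCm38.p6, and capitals mark the GC box, GGGCGG on either strand. The gene positions are from GENCODE on GRCm38. Bmp4 lies at chr14:46383520-46390669 on the minus strand and the stretch shown is chr14:46390670-46390919. Bmp5 lies at chr9:75775364-75900310 on the plus strand and the stretch shown is chr9:75775115-75775364, whose last base is the first of the gene in these coordinates.
Bmp4: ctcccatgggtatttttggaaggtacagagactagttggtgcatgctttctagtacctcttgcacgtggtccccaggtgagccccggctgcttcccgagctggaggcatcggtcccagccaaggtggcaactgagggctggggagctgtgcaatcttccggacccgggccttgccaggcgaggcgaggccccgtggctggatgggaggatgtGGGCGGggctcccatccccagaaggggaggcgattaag
Bmp5: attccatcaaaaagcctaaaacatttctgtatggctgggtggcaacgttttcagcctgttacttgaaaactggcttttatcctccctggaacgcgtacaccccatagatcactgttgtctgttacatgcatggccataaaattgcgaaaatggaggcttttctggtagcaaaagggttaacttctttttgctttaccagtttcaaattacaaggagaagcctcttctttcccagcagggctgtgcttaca
The Bmp4 stretch was 63.2% G and C and held 1 GC box, and the Bmp5 stretch was 42.8% with none. Over 32851 promoters of the same length the median was 52.4% (quartiles 45.2 to 61.2%), and 32.7% of them held a GC box. Of the 9 genes, 4 had a sequence in the promoter table, and the other two, Bmp6 and Grem1, held 68.8% and 72.0% G and C. None of the 4 held TATAAA or ACAAT, the core of a SOX site, on either strand, which 12.4% and 27.7% of promoters did. These letters are a description of the sequence and were not tied to any measurement of binding.

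**Figure D1:**
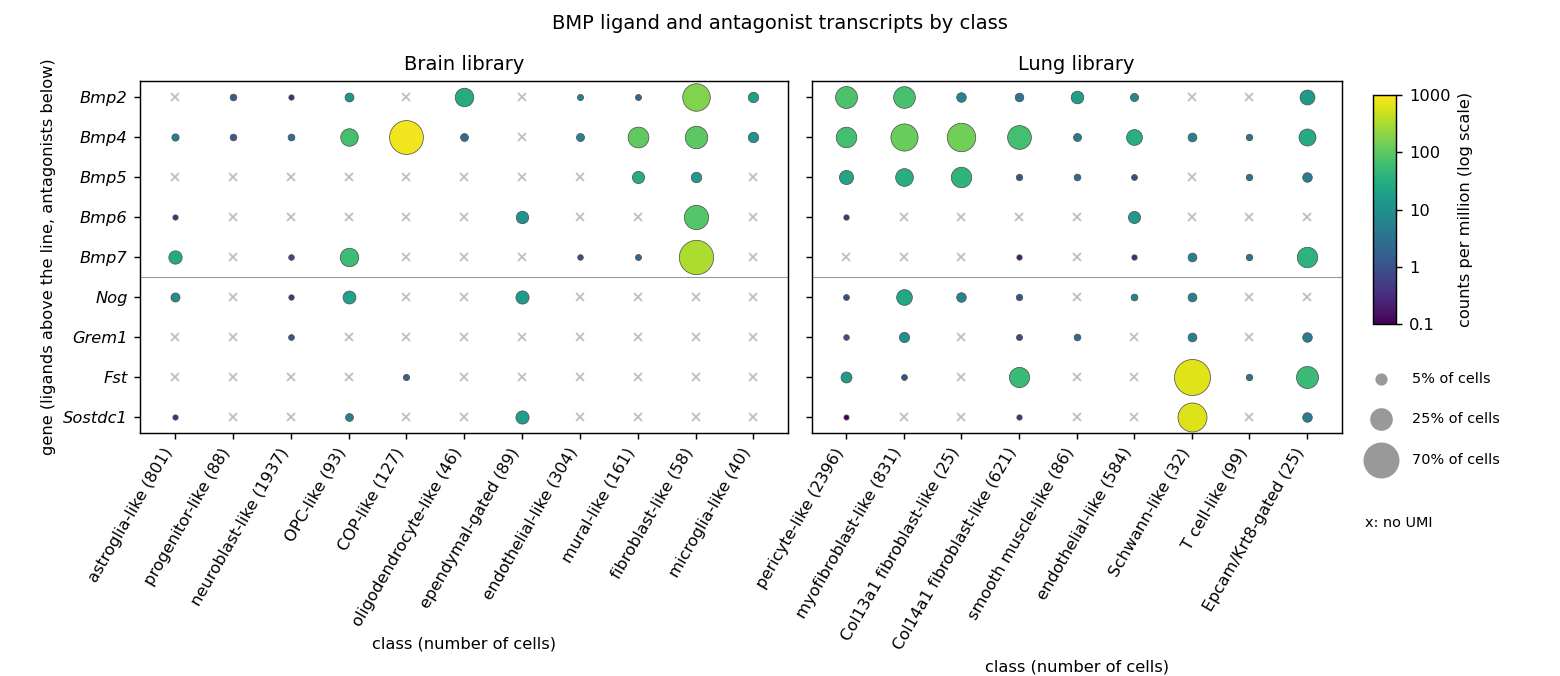
Level and detection of the 9 genes in each class of the brain (left) and lung (right) library. Colour is the level in CPM on a log scale, the area of a point is the share of cells with a UMI, a cross marks no UMI, and the number of cells is in brackets. Bmp4 in COP-like cells (833 CPM) and Fst and Sostdc1 in Schwann-like cells (635 and 623 CPM) are the brightest points.

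In the brain, Bmp4 had its highest level in the oligodendrocyte lineage. COP-like cells, named after the committed oligodendrocyte precursors that have left the dividing state, held 498 Bmp4 UMIs in 127 cells (833 CPM, 762 to 910). This was 7.78 times (5.76 to 10.7) the level of the next class, the mural-like cells of the vessel wall (47 UMIs, 107 CPM). Fibroblast-like cells (34 UMIs, 98.5 CPM) and the oligodendrocyte precursor cell-like (OPC-like) class (25 UMIs, 63.3 CPM) followed, and their intervals overlapped those of mural-like cells. The astroglia-like, neuroblast-like, endothelial-like and microglia-like classes lay between 2.66 and 12.2 CPM. Of the COP-like cells, 68.5% had a Bmp4 UMI at a median depth of 2636 UMIs, against 1.24% of neuroblast-like cells at a median of 4434. At 1000 UMIs per cell the shares were 52.2% and 0.478%. Oligodendrocyte-like cells were deeper still (median 12106) and had 1 UMI in 46 cells (2.31 CPM). Nes, whose reporter defined the sort, had no UMI in the 127 COP-like cells.

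Because many brain cells with Bmp4 fell between the gates, the lineage was also cut by the balance of OPC and COP markers found in each cell, a division chosen after the values were seen. Cells with OPC markers ahead by 3 or more had 50.2 CPM (27.4 to 84.2, 69 cells), and those ahead by 1 or 2 had 216 CPM (44 cells). The level was 956 CPM where the marker numbers were equal (26 cells) and 1068 CPM (987 to 1153, 89 cells) where COP markers led by 1 or 2. It was lower again at a lead of 3 or 4 (600 CPM, 509 to 703) and of 5 or more (206 CPM, 89.1 to 407, 11 cells). Bmp4 therefore had its highest level in the middle of this order and was at 2.31 CPM in oligodendrocyte-like cells. Bmp7 had another order in the same cells, with 57.3 and 47.3 CPM on the OPC side, 11.7 CPM where the numbers were equal, 3.29 CPM at a COP lead of 1 or 2 and no UMI beyond. The number of markers found in a cell also moves with its depth, with median depths of 2276 to 7656 UMIs over these steps, and the part of depth in this order was not tested. Within the COP gate, cells with 0, 1, 2 and 3 oligodendrocyte markers had 1124, 930, 874 and 762 CPM of Bmp4. The 361 oligodendroglial cells, 8.70% of the brain cells, together held 1031 of the 1201 Bmp4 UMIs (85.9%).

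**Figure D2:**
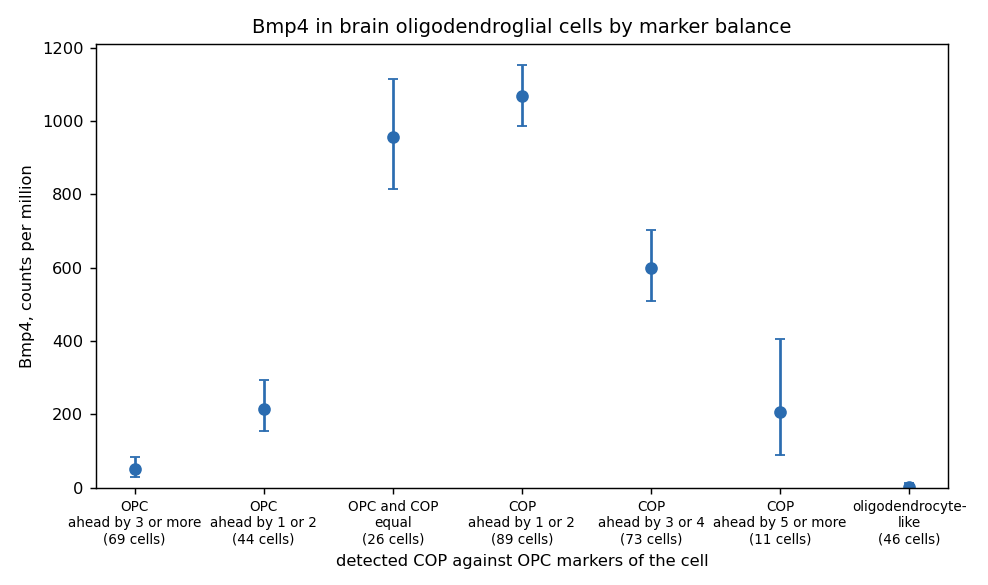
Bmp4 level in brain oligodendroglial cells, in CPM on a linear axis, against the balance of COP and OPC markers detected in the cell. Points are summed counts of all cells of a step and bars are exact 95% Poisson intervals. The level is 956 and 1068 CPM in the middle steps and 2.31 CPM in oligodendrocyte-like cells.

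Brain fibroblast-like cells, a class of 58 cells with Dcn, Lum and collagen genes in the lead, held the highest level of 3 ligands, out of 8 of the 9 genes with 10 or more brain UMIs (6.04% of all genes were highest there). Bmp7 had 110 UMIs there (318.5 CPM, 262 to 384), 5.72 times (3.59 to 9.49) the 55.7 CPM of OPC-like cells. Bmp2 had 60 UMIs (174 CPM, 133 to 224), 6.28 times (3.35 to 12.8) the 27.7 CPM of oligodendrocyte-like cells. Bmp6 had 29 UMIs (84.0 CPM, 56.2 to 121), 7.10 times (3.05 to 19.2) the 11.8 CPM of the ependymal-gated cells, and Txndc5, which overlaps Bmp6 on the opposite strand, had 188 CPM in the same cells. These 58 cells gave 1.77% of the UMIs of the brain cells and held 63.8% of Bmp2, 76.3% of Bmp6 and 43.5% of Bmp7 UMIs. Bmp7 was found in 70.7% of them, Bmp2 in 44.8% and Bmp6 in 34.5%, at a median of 5340 UMIs, while none of the 127 COP-like cells, at a median of 2636 UMIs, had a UMI of any of these 3 ligands, which allows a share of cells with a UMI of up to 2.36%. Bmp7 was found in 84.6% of the fibroblast-like cells with Bmp2 and in 59.4% of those without, whose median depths were 6290 and 4908 UMIs.

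Among neural classes, the Bmp7 level of the astroglia-like class, a set that holds quiescent neural stem cells and astrocytes together, was next to that of OPC-like cells. It had 83 UMIs in 801 cells (26.8 CPM, 21.3 to 33.2), or 32.8% of the brain's Bmp7. Within it, the 383 cells with Slc7a10, a transporter gene of parenchymal astrocytes, had 61 UMIs (36.3 CPM), and the 62 cells with Thbs4, a gene of subventricular astrocytes and stem cells, had 1 UMI (4.30 CPM). The Thbs4 to Slc7a10 ratio was 0.119 (0.00295 to 0.686). Clusters set side by side as a description, since clustering used all genes, gave 37.0 CPM in cluster 2, 23.5 CPM (7.63 to 54.9) in cluster 8 and 4.24 CPM in cluster 5, where Thbs4 was among the leading genes. Progenitor-like cells had no Bmp7 UMI in 88 cells, and neuroblast-like cells had 7 UMIs in 1937 cells (0.744 CPM).

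Bmp5 was rare in the brain. Of its 20 UMIs, 13 were in mural-like cells (29.7 CPM) and 5 in fibroblast-like cells (14.5 CPM), which did not differ beyond counting error (ratio 2.05, 0.685 to 7.34). The other 2 were in unassigned cells, and no other brain class had any. Brain endothelial-like cells had 7 UMIs each of Bmp2 and Bmp4 (6.01 CPM), and 6 of the 7 Bmp2 UMIs lay in 1 cell.

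Lung Bmp2, Bmp4 and Bmp5 had their highest levels in mesenchymal classes. Bmp2 had 897 UMIs in pericyte-like cells, the mural cells of capillaries (74.3 CPM, 69.5 to 79.3), and 346 in myofibroblast-like cells (68.2 CPM, 61.2 to 75.8), with a ratio of 1.09 (0.962 to 1.24). Both were well above smooth muscle-like cells (17.6 CPM), which lay 3.88 times (1.95 to 9.05) lower than myofibroblast-like cells. The remaining lung classes were at 14.5 CPM or less, with no Bmp2 UMI in Schwann-like or T cell-like cells. A further 17 myeloid-like cells, too few to be compared, held 11 Bmp2 UMIs (104 CPM).

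Bmp4 was spread more evenly over the lung mesenchyme. Col13a1 fibroblast-like cells had 20 UMIs (134 CPM, 81.7 to 207) and myofibroblast-like cells 620 (122 CPM, 113 to 132), which did not differ beyond counting error. The myofibroblast-like level was 1.89 times (1.66 to 2.17) that of Col14a1 fibroblast-like cells (64.6 CPM), which did not differ beyond counting error from pericyte-like cells (63.7 CPM, ratio 1.01, 0.890 to 1.15). Endothelial-like cells had 112 UMIs (33.7 CPM, 27.7 to 40.5). Smooth muscle-like cells, in contrast to the other mesenchymal classes, had 2 UMIs (4.40 CPM). Gm15222, a gene on the opposite strand that overlaps Bmp4, had 43.5 CPM in COP-like cells, and because the strand setting of the counting is not given in the sources used here, reads of that pair cannot be told apart.

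Bmp5 had its highest lung levels in the same leading classes. There were 6 UMIs in Col13a1 fibroblast-like cells (40.1 CPM), 168 in myofibroblast-like cells (33.1 CPM, 28.3 to 38.5) and 272 in pericyte-like cells (22.5 CPM, 19.9 to 25.4). The myofibroblast-like level was 1.47 times (1.21 to 1.79) the pericyte-like level. Bmp5 was at 1.13 CPM in Col14a1 fibroblast-like cells and 0.902 CPM in endothelial-like cells.

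Bmp6 and Bmp7 were rare in the lung and lay in other classes. Bmp6 had 47 of its 55 UMIs (85.5%) in endothelial-like cells (14.1 CPM, 10.4 to 18.8), which was 34.1 times (13.6 to 110) the pericyte-like level. The overlapping Txndc5 had 158 CPM in these cells and 97.4 CPM in pericyte-like cells. The Schwann-like, Epcam- and Krt8-gated and Col13a1 fibroblast-like classes had no Bmp6 UMI, but their upper limits (21.5, 17.9 and 24.7 CPM) lay above 14.1 CPM, so they are not told from the endothelial-like level. Bmp7 had 8 of its 22 UMIs in 25 cells gated on Epcam and Krt8 (38.8 CPM), all in the 18 of these cells without Sftpc, the surfactant gene of alveolar type II cells. Bmp7 was not found in pericyte-like or myofibroblast-like cells, 2396 and 831 cells, which allows a share of cells with a UMI of up to 0.125% and 0.361%.

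**Figure D3:**
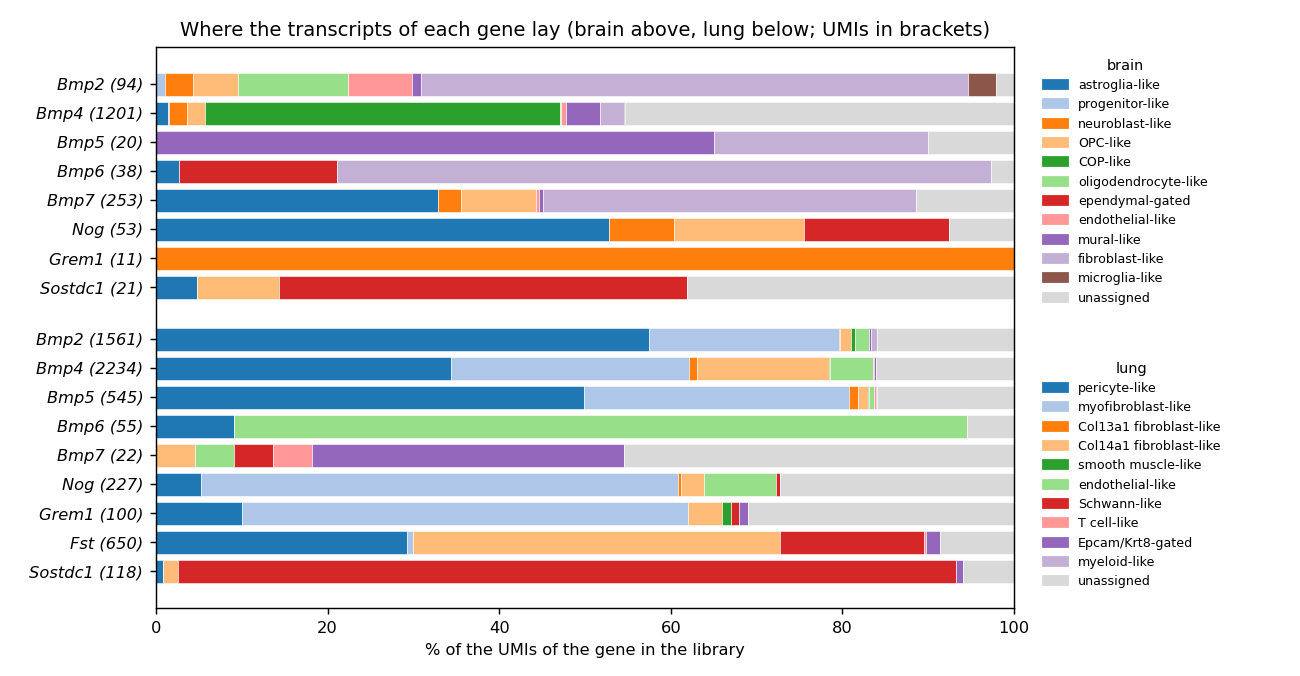
Share of the UMIs of each gene that lay in each class, in percent, with brain above and lung below and the UMIs of the gene in brackets. Fst is not drawn for brain, where it had 1 UMI. Fibroblast-like cells take 63.8% of brain Bmp2, endothelial-like cells 85.5% of lung Bmp6 and Schwann-like cells 90.7% of lung Sostdc1.

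Among the antagonists, Fst and Sostdc1 were highest by far in the lung's Schwann-like cells, glia of peripheral nerves. Follistatin binds activins as well as BMPs, and its gene had 109 UMIs over the 32 cells of this class (635 CPM, 521 to 766). This was 11.9 times (6.40 to 24.6) the level of the Epcam- and Krt8-gated cells (11 UMIs, 53.3 CPM, or 15.2 CPM under a stricter gate). Col14a1 fibroblast-like cells came next (278 UMIs, 52.2 CPM, 46.2 to 58.7). Pericyte-like cells had 190 Fst UMIs (15.7 CPM, 13.6 to 18.1), 3.31 times (2.75 to 4.01) less than Col14a1 fibroblast-like cells. Fst was found in 78.1% of Schwann-like cells at a median of 5525 UMIs and in 0.481% of myofibroblast-like cells at 6119, or in 40.6% and 0.242% at 1000 UMIs per cell. Endothelial-like cells had no Fst UMI in 584 cells, which allows a share of cells with a UMI of up to 0.514%.

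Sostdc1, which hinders both BMP and Wnt signals, was the most restricted antagonist. Of its 118 lung UMIs, 107 (90.7%) were in Schwann-like cells (623 CPM, 511 to 753), 129 times (22.6 to 5128) the level of the next class, where there was 1 UMI. The UMIs came from 16 of the 32 cells, up to 22 in a cell, and 92.5% were in 10 cells. Sostdc1 was found in 52% of the Schwann-like cells with Fst and in 42.9% of those without, at median depths of 5873 and 4909 UMIs. In the brain it had 21 UMIs, of which 10 were in ependymal-gated cells (16.9 CPM). The leading gene of that gate was Ttr, a choroid plexus gene, with 115 UMIs (194 CPM) in 6.74% of its cells and none of its own markers among the 10 leading genes, so these cells are named by their gate only, and the part of Ttr-bearing cells in the Sostdc1 level was not tested.

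Noggin and gremlin 1 had their lung levels in myofibroblast-like cells. Nog had 126 of 227 UMIs there (24.8 CPM, 20.7 to 29.6) and Grem1 52 of 100 (10.2 CPM, 7.65 to 13.4). Endothelial-like cells had 19 Nog UMIs (5.71 CPM) in 7 cells, with 8 of them in 1 cell, and no Grem1 UMI. In pericyte-like cells both were at or under 1 CPM (0.994 and 0.828). Schwann-like and Col13a1 fibroblast-like cells had 1 Nog UMI each, with upper limits (32.5 and 37.3 CPM) above the myofibroblast-like level, while Epcam- and Krt8-gated cells had none (upper limit 17.9 CPM). For Grem1 the upper limits of these 3 classes (32.5, 24.7 and 27.0 CPM) were all above 10.2 CPM. The myofibroblast-like gate was checked, since its leading genes were those of airway secretory cells. Of its 1676 UMIs of Scgb1a1 and Scgb3a2, 1671 were in 1 cell, and without it Bmp4 was at 122 CPM and Grem1 at 10.1 CPM.

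In the brain, Nog had 53 UMIs, with 28 in astroglia-like cells (9.03 CPM, 6.00 to 13.1), 9 in ependymal-gated cells (15.2 CPM) and 8 in OPC-like cells (20.3 CPM). These 3 classes were not told apart by counting error, and all stood above neuroblast-like cells, from which astroglia-like cells differed 21.2 times (7.43 to 83.4). All 11 brain Grem1 UMIs were in neuroblast-like cells (1.17 CPM). Fst had 1 UMI in the kept brain cells, in a COP-like cell.

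A class with a level at least 2 times that of every other class was used as a mark of restriction for genes of 50 or more UMIs. In the brain, 4 of the 9 genes could be judged, and Bmp2, Bmp4 and Bmp7 passed, also at 4 times, where 26.1% and 11.0% of all genes did. In the lung, 8 could be judged, 4 passed at 2 times (Bmp6, Nog, Fst and Sostdc1) and 3 at 4 times (Bmp6, Fst and Sostdc1), beside 22.6% and 8.31% of all genes. Nog passed against a class with 1 UMI (ratio 3.71, 0.655 to 148). Each level was set against the next class with a UMI, which for Bmp6 was the pericyte-like class. The Schwann-like, Epcam- and Krt8-gated and Col13a1 fibroblast-like classes had no Bmp6 UMI, but their upper limits lay above its 14.1 CPM. Bmp6 was therefore not shown to be 2 times higher than in those classes. Bmp2, Bmp4 and Bmp5 in the lung were shared between classes, as was Grem1, whose next class held 1 UMI.

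Classes present in both tissues were then set against each other, which asks whether the same kind of cell held transcripts of the same BMP regulators in brain and lung. The part of free RNA in levels that rest on a few UMIs was not tested. A gene was judged where the pair held 10 or more UMIs, and was counted as higher where the ratio was at least 2. In endothelial-like cells, 4 genes were judged and 3 were higher in lung (14.5% of all genes were) and none in brain (13.1%). Bmp4 was 33.7 CPM in lung and 6.01 in brain, a ratio of 5.60 (2.63 to 14.3). Bmp6 had 47 UMIs in lung and 0 in brain, at least 5.49 times higher in lung against a floor of 3 counts over the brain class, and Nog had 19 and 0, at least 2.22 times. The Nog bound fell under 2, to 1.69 times, where cells of 4000 genes or more were also counted, and to 1.29 times without the 1 lung cell that held 8 of the 19 UMIs. Bmp2 was 7.51 and 6.01 CPM (ratio 1.25, 0.526 to 3.42), but the brain value rests on the 1 cell with 6 of the 7 UMIs, without which it was 0.862 CPM and the ratio 8.72 (1.43 to 358). The number higher in lung stayed at 3 when the cell with most UMIs of each gene was left out, with Bmp2 in place of Nog.

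Lung pericyte-like cells had more Bmp2 than brain mural-like cells, with 897 UMIs against 1 (74.3 and 2.28 CPM, ratio 32.6, 5.83 to 1288). Fst had 190 UMIs against 0, at least 2.30 times higher in lung. These were 2 of 6 genes judged in that pair, with none higher in brain, while 12.3% of all genes were higher in lung and 18.7% in brain. Bmp4 was 63.7 CPM in lung and 107 in brain (ratio 0.594, 0.443 to 0.816), and Bmp5 was 22.5 and 29.7 CPM (0.760, 0.437 to 1.45). Nog and Grem1 had 12 and 10 UMIs in lung and 0 in brain, but the 161 brain cells were too few to show levels as low as those of lung.

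The fibroblast pair had the opposite balance. Of 6 genes judged between lung Col14a1 fibroblast-like and brain fibroblast-like cells, 4 were higher in brain (18.3% of all genes were) and 1 in lung (13.2%). Bmp7 was at 318.5 CPM in brain and 0.188 in lung, with 110 UMIs against 1 (lung to brain ratio 0.000589). Bmp2 was 46.3 times higher in brain (174 against 3.75 CPM) and Bmp5 12.9 times (14.5 against 1.13 CPM), or 7.84 times without the cell that held 2 of its 5 brain UMIs. Against the 25 Col13a1 fibroblast-like cells of the lung, in contrast, Bmp5 was higher in lung (40.1 CPM, 6 UMIs), with an interval of the ratio that spanned 1 (2.77, 0.705 to 11.5). Bmp6 had 29 UMIs in brain and 0 in lung, at least 149 times higher. Fst was the exception, with 278 UMIs in lung and 0 in brain, at least 6.00 times higher in lung. Bmp4 was 64.6 CPM in lung and 98.5 in brain (ratio 0.656, 0.460 to 0.962, or 0.798, 0.539 to 1.23, without the brain cell that held 7 of 34 UMIs), so in this pair it was the ligand with the least difference.

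**Figure D4:**
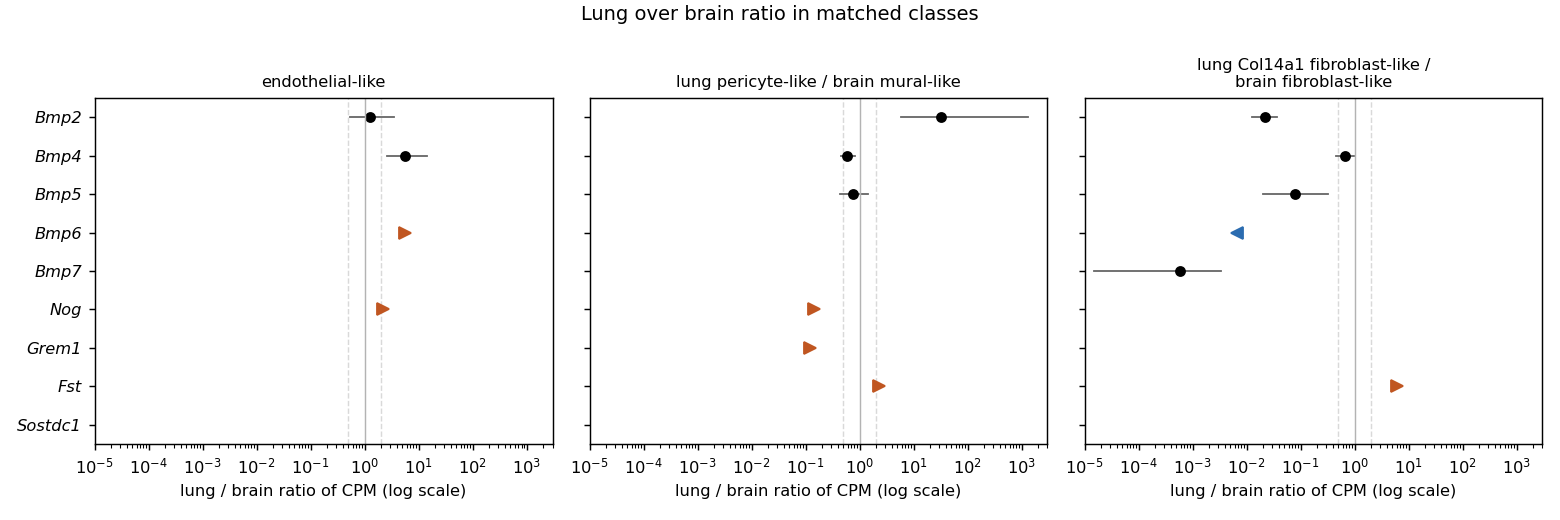
Lung over brain ratio of CPM on a log axis for each gene in the 3 matched classes. Points are ratios with exact 95% intervals, arrowheads pointing right mark lower bounds and the arrowhead pointing left an upper bound where a class had no UMI, dashed lines mark 2 times either way, and genes under 10 UMIs are left blank. Bmp2 lies to the right of the line of no difference in the pericyte and mural pair and to the left in the fibroblast pair.

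Within the brain, COP-like and OPC-like cells were compared as 2 steps of the same lineage. Of 2 genes judged, Bmp4 was 13.2 times (8.81 to 20.5) higher in COP-like cells, and Bmp7 had 22 UMIs in OPC-like and 0 in COP-like cells, at least 11.1 times higher in OPC-like cells. Over all genes, 10.2% were at least 2 times higher in COP-like and 22.5% in OPC-like cells. With a class at 0 taken at its bound, the medians of the log2 ratio over the genes judged were 1.80, -0.57, -4.61 and 0.12 in the endothelial, mural, fibroblast and oligodendroglial pairs, beside 0.02, -0.25, -0.22 and -0.24 over all genes. Over the 2, 3, 4 and 1 genes with UMIs in both classes the medians were 1.41, -0.40, -4.61 and 3.72, beside 0.00, -0.16, -0.16 and -0.24.

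Lung classes were not uniform inside. Endothelial-like cells with Ednrb or Apln, genes of specialised capillary cells, had 8.48 CPM of Nog against 1.51 in the rest (ratio 5.60, 1.33 to 50.01). These were 17 and 2 UMIs, and without the cell that held 8 the ratio was 2.97 with an interval that spanned 1 (0.615 to 28.3). They had less Bmp6, with 8.98 against 21.9 CPM (0.409, 0.214 to 0.762), and the same Bmp4 within the interval (ratio 0.982). The clusters that follow, made without the 9 genes, are given as a description. Of the myofibroblast-like cells, cluster 3 had 18.9 CPM of Grem1 and cluster 4 had none, at least 11.7 times less. Bmp2 lay the other way (47.0 against 102 CPM, ratio 0.461, 0.366 to 0.580), while Bmp4 (138 and 102 CPM) and Nog (29.9 and 19.4 CPM) were nearer. Bmp2 and Grem1 were also seldom found in the same cell, with Grem1 in 1.33% of the myofibroblast-like cells with Bmp2 and in 6.12% of the others, although the cells with Bmp2 were deeper (medians 7126 and 5861 UMIs).

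Among pericyte-like cells, cluster 8 (152 cells, with Adora1, Eln and Slit3 among its leading genes) had 46.4 CPM of Fst and 108 CPM of Bmp4. Cluster 12 (98 cells), led by the interferon-induced chemokine genes Cxcl9 and Cxcl10, had low levels of both main ligands, with 10.9 CPM of Bmp2 and 6.53 CPM of Bmp4. Fst in Col14a1 fibroblast-like cells was at 58.7 CPM in cluster 2 and 1.85 CPM in cluster 15 (ratio 31.8, 5.66 to 1261). Bmp4 was found in 33.0% of that class, and Fst in 28.8% of the cells with Bmp4 and in 20.7% of those without, at medians of 9501 and 8830 UMIs.

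The other genes of the pathway were taken from a list of 56 gene names, of which 52 had counts. Between lung and brain endothelial-like cells 33 could be judged, with 10 higher in lung and 5 in brain (14.5% and 13.1% of all genes were). The pericyte and mural pair gave 35 with 13 and 5 (12.3% and 18.7%) and the fibroblast pair 40 with 13 and 5 (13.2% and 18.3%). In the COP-like and OPC-like pair 21 were judged, 4 higher on each side (10.2% and 22.5%). Their median log2 ratios were 0.32, 0.38, 0.14 and -0.07.

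Of the listed receptors with 50 or more UMIs, 4 of 10 in brain and 3 of 9 in lung were highest in endothelial-like cells, where 8.22% and 11.6% of all genes were. Acvrl1, a type I receptor of endothelium that binds BMP9 and BMP10, was at 416 CPM in brain and 499.6 CPM in lung endothelial-like cells, above every other class of its library. The co-receptor gene Eng (749 and 590.3 CPM) and the type II receptor gene Bmpr2 (166 and 159 CPM) were also highest there. Bmpr1a, a type I receptor for BMP2 and BMP4, was instead at 3.43 and 4.51 CPM in endothelial-like cells. It was between 33.5 and 116 CPM in brain mural-like, fibroblast-like, OPC-like and COP-like cells. Its highest lung level was in smooth muscle-like cells (152 CPM). Other low classes were the brain's microglia-like (12.2 CPM) and oligodendrocyte-like cells (23.05 CPM) and the lung's T cell-like cells, which had no UMI. None of 8 receptors judged in the endothelial pair was past 2 times either way, where 14.5% of all genes were in lung and 13.1% in brain. In the mural pair 9 were judged with 2 higher on each side (12.3% of all genes in lung, 18.7% in brain), and in the fibroblast pair 9 with 3 higher in lung and 2 in brain (13.2% and 18.3%).

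Id1 and Id3, direct targets of BMP SMADs, were highest in the same cells. Id1 was at 1621 CPM in brain and 1517 in lung endothelial-like cells, and Id3 at 1762 and 1869 CPM. Id2 and Id4 were not highest there but in brain astroglia-like and lung smooth muscle-like cells. Id2 was at 644.5 and 560.6 CPM in those classes and Id4 at 498.7 and 178.1 CPM. In brain and lung endothelial-like cells Id2 was at 68.7 and 360 CPM and Id4 at 5.15 and 2.4 CPM. Smad7, an inhibitory SMAD that is itself a target, was at 854 CPM in lung and 282 in brain endothelial-like cells (ratio 3.03), but its highest brain level was in oligodendrocyte-like cells (973 CPM), with 395 CPM in COP-like cells and 53.2 in OPC-like cells. Id2 lay the other way in that lineage, with 279 CPM in OPC-like and 6.69 CPM in COP-like cells. Of the 9 listed targets 8 were judged in each tissue pair. In lung, 4, 5 and 3 were higher in the endothelial, mural and fibroblast pairs (14.5%, 12.3% and 13.2% of all genes), and in brain 2, 0 and 0 (13.1%, 18.7% and 18.3%).

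**Figure D5:**
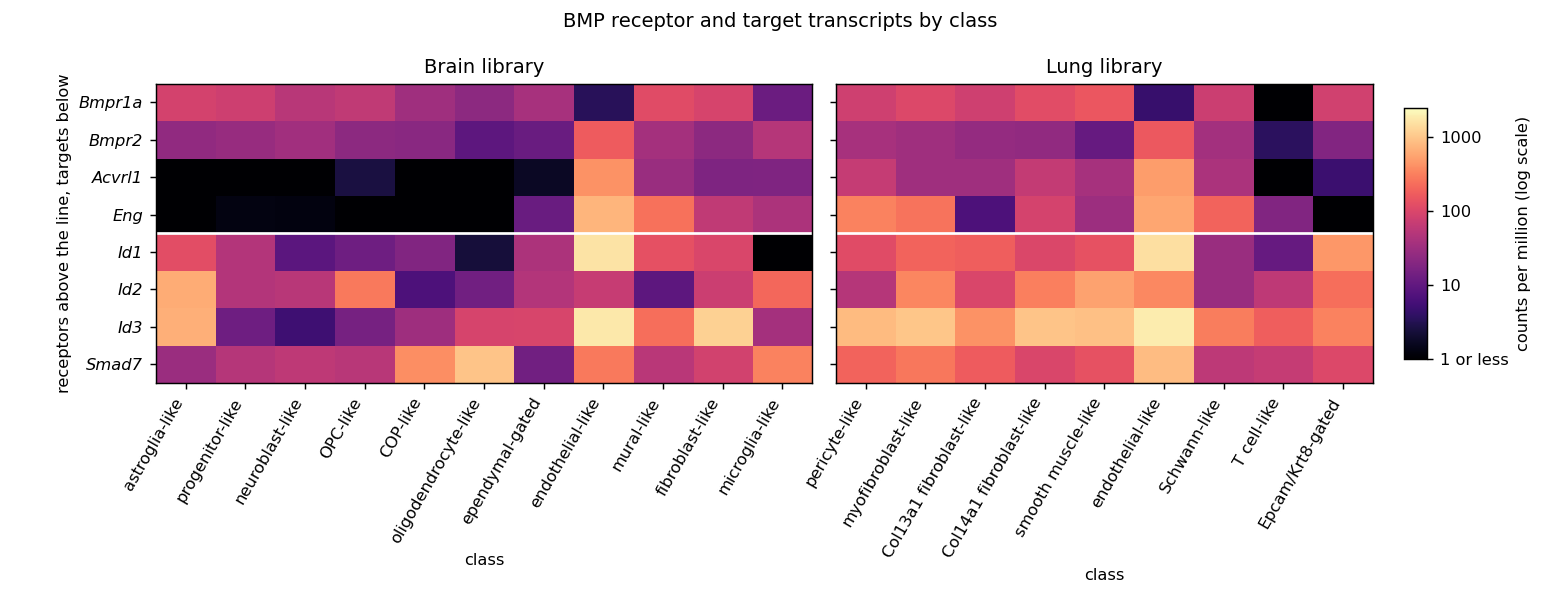
Level of 4 receptor genes and 4 target genes in each class of the brain (left) and lung (right) library, as colour in CPM on a log scale, with 1 CPM or less in black. Acvrl1, Eng, Id1 and Id3 are brightest in endothelial-like cells of both libraries, where Bmpr1a is at 3.43 and 4.51 CPM.

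Of the other listed ligands, 2, 2 and 5 were judged in the endothelial, mural and fibroblast pairs. Of these, 1, 0 and 3 were higher in lung and none in brain. Of the extracellular modulators 11, 12 and 14 were judged, with 4, 6 and 4 higher in lung and 4, 3 and 3 in brain. Over all genes 14.5%, 12.3% and 13.2% were higher in lung and 13.1%, 18.7% and 18.3% in brain. Gdf10, a BMP-related ligand gene, was 62.0 times higher in lung Col14a1 fibroblast-like than in brain fibroblast-like cells (957 UMIs against 1, 180 and 2.90 CPM, interval 11.1 to 2452). Bmp3, which opposes other BMPs, was at 32.8 CPM in lung Col14a1 and 120 CPM in Col13a1 fibroblast-like cells, and Inhbb, an activin subunit gene, at 28.9 CPM in lung endothelial-like cells. Gdf11, another ligand gene, was past 2 times either way in none of the tissue pairs (lung to brain ratios 1.75, 0.885 and 0.713 in the endothelial, mural and fibroblast pairs). Fstl1, a follistatin-like gene, was at 903 CPM in lung and 8.58 CPM in brain endothelial-like cells (ratio 105). Nbl1, another antagonist gene, was 13.0 times higher in brain mural-like cells (878 CPM) than in lung pericyte-like cells (67.5 CPM). Crim1, which tethers BMPs at the cell surface, was at 482 CPM in lung pericyte-like and 157 CPM in brain mural-like cells. Htra1, a secreted protease gene, was at 1903 CPM in brain astroglia-like and 1208 CPM in lung myofibroblast-like cells. Its lung to brain ratios were 1.25, 0.531 and 1.24 in the endothelial, mural and fibroblast pairs. In lung and brain endothelial-like cells the intracellular Smad4 was at 100.7 and 147 CPM and Smad5 at 47.8 and 61.8 CPM. Smurf2, a ubiquitin ligase gene, was at 155 and 73.8 CPM there. Smad4 was past 2 times either way in none of the tissue pairs. Smad5 was not past 2 times in the endothelial and fibroblast pairs (lung to brain ratios 0.7734 and 1.021). In the mural pair it was higher in lung (ratio 2.095, 1.319 to 3.549). Among genes of the list with 50 or more UMIs, 16 of 36 in brain and 18 of 39 in lung were at least 2 times higher in a class than in every other (26.1% and 22.6% of all genes were). Endothelial-like cells were that class for 6 in each library, as they were for 2.84% and 3.16% of all genes.

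Over the 20 classes, the genes whose levels were most like those of each of the 9 were found by Pearson correlation of log2(CPM + 10) among 15451 genes, given as a description. For Sostdc1 these were Gfra3 and Foxd3 (both 0.965) and Reln (0.950), and for Fst Ngfr, Hand2 and Aldh1a3 (0.876 to 0.879). Bmp4 was most like its overlapping gene Gm15222 (0.889), then Arhgap24 (0.806) and Opn3 (0.742). Bmp5 was nearest Tbx2, Rerg and Pla2r1 (0.876 to 0.894), Bmp6 nearest Adra2c, Coch and Kcnj13 (0.878 to 0.902), and Bmp7 nearest Eya1, Kcnt1 and Snhg11 (0.842 to 0.889). Bmp2 was nearest Gm9918, Fmod and Edn3 (0.736 to 0.817), Grem1 nearest Tnc, Fgf9 and Met (0.802 to 0.819), and Nog nearest Nt5dc3, Pgbd5 and Agt (0.739 to 0.749). The classes share library and depth, and small classes carry large counting error.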

How the data were processed

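Single-cell 3′ libraries (10x Chromium, v3 chemistry) of sorted brain and lung Nes-GFP+ cells were analysed. Per the labels and the submitters' processing notes, the authors used bcl2fastq 2.19.1.403, UMI-tools 1.0.0, STAR 2.7.1a (build mm10) and featureCounts 1.6.4. The annotation and strand setting are not given in the sources used here. The deposited values are raw UMI counts per gene and barcode, from 4640 brain barcodes (26221173 UMIs, 23906 genes) and 5981 lung barcodes (36816962 UMIs, 23156 genes).

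Barcodes with more than 200 and fewer than 4000 genes and under 40% of counts from mitochondrial genes passed, the study's own filter. Doublets were kept, and Scrublet (scanpy 1.11.5) called 44 brain cells (1.06%) and 74 lung cells (1.32%). A cell entered a class with at least 3 of up to 8 markers and a lead of 2 over the next of 25 lists (14 brain, 11 lung), thresholds set with values in view. Classes under 20 cells were left out. Check markers, which were not in the gate of their own class, were highest in that class except for the myofibroblast list. Its 4 were higher in smooth muscle-like cells (2185 against 1695 CPM), whose own gate holds Actg2 of that list. Pdgfra, a check marker of brain fibroblast-like cells, was likewise a marker of the OPC gate. Counts were summed per class. Intervals are exact 95% Poisson, conditional binomial or Clopper-Pearson intervals (Python 3.11.15, scipy 1.17.1). A level of 0 was replaced by a floor of 3 counts over the class for bounds, and shares of 0 cells allow 3 counts of the total. Shares were repeated after thinning to 1000 UMIs. Clusters came from Seurat 5.3.0 (R 4.3.3; 2000 variable genes, 20 principal components, resolution 0.8). With 1 library per group no test was made. Ratios were tested on simulated data.

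The 9 genes, the gene lists and the comparisons were chosen with earlier results of these data known. The other pathway genes named are the 4 of each group with the most UMIs, and Id4. Alternatives were a stricter and a looser gate, classes from clusters, doublets left out, a mitochondrial limit of 10%, no upper gene limit, each cell weighing the same, a total without mitochondrial genes, other thinning and other thresholds. Leaving out cells with airway transcripts or the cell with most UMIs of a gene, using the other lung fibroblast class, and counting every barcode, were alternatives chosen after seeing the data.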

Additional observations from a re-analysis of the deposited data

Results flagged for a closer look

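The gene limit of the filter left out 418 brain barcodes of 4000 genes or more, which lie outside the comparisons above. They held 1210 Bmp4 UMIs, more than the 1201 of all kept brain cells, in 111 barcodes (184 CPM). Of these, 500 were in 65 COP-gated barcodes at 469 CPM, below the 833 CPM of the kept COP-like cells, and 670 were in barcodes that no gate took. Whether these barcodes are large cells or doublets was not tested.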

How the results depend on the processing

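The numbers of the 9 genes called in each tissue pair, or restricted to a class at 2 or 4 times, were equal to those given above under all 8 alternatives, except that 2 and not 3 were higher in lung endothelial-like cells without the upper gene limit, where Nog was lost, and that 4 and not 3 were restricted at 4 times in lung under the stricter gate. No called ratio was reversed under these. With Col13a1 fibroblast-like cells as the lung class of the fibroblast pair, Bmp5 was reversed (ratio 2.77), Bmp2, Bmp6 and Bmp7 stayed higher in brain, and Fst had no UMI on either side. Leaving out the cell with most UMIs of a gene changed the call of Bmp2 and of Nog in the endothelial pair and no other call in the tissue pairs. In the fibroblast pair the lung to brain ratio of Bmp7 ran from 0.000533 to 0.00249 (stricter gate), and that of Bmp6 from 0.00208 (clusters) to 0.0102 (stricter gate). The endothelial Bmp4 ratio ran from 3.70 (clusters) to 8.70 (each cell weighing the same). Of 38 shares of a gene's UMIs in a class, 15 moved beyond their interval under the stricter gate, 10 with clusters and 8 without the gene limit. Under the stricter gate brain fibroblast-like cells held 50% of Bmp2, 52.6% of Bmp6 and 32.4% of Bmp7, while the COP-like share of Bmp4 went from 41.5% to 13.2% there and to 85.0% with clusters. No paired analysis was possible because each group was 1 library. The depth of small classes limits what could be seen, since 1 UMI stood for 5.82 CPM in Schwann-like and 6.69 CPM in Col13a1 fibroblast-like cells. The Bmp4 level of COP-like cells was 631 CPM under the stricter gate and 600.1 CPM without the gene limit. Of the other pathway genes, 2 were higher in brain in the endothelial pair and 3 in the fibroblast pair with at least 50 UMIs over the pair (8.95% and 12.1% of all genes). At a fold of 4, these were 1 and 1 (5.02% and 6.29%), and the numbers higher in lung were 5, 4 and 7 in the endothelial, mural and fibroblast pairs (6.78%, 4.15% and 3.89%). The highest class changed for lung Bmp7 under the stricter gate (Schwann-like, 6.03 CPM), for lung Bmp2 with classes from clusters (myofibroblast-like 73.2, pericyte-like 72.3 CPM), for lung Grem1 with clusters or with cells weighing the same (Epcam- and Krt8-gated, 10.2 and 15.7 CPM) and for brain Nog with cells weighing the same (ependymal-gated, 18.5 CPM).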
